A study of Gallus gallus with 24 samples.

Results

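Myogenic factors and myostatin were followed in breast muscle, whole brain, liver and duodenum of Ross broiler chickens, a commercial meat strain, at hatch (day 0) and at 7 days after hatch. The group comprised the 9 genes PAX3, PAX7, MYF5, MYOD1, MYOG, MYF6, MEF2C, MSTN and NCAM1, chosen by name. They were found as the 13 probe sets, of 38535 in the table, whose only gene symbol in the annotation of the Affymetrix chicken array is one of these names. All 8 combinations of tissue and age held birds of the same strain, labelled male, with no treatment named. Each of the 8 groups had 3 replicate arrays, and each array carried RNA pooled from 4 to 5 chicks, so the spread between arrays is a spread between pools and not between birds. Whether the same birds gave several tissues is not stated in the sources used here.

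In vertebrates, PAX3 and PAX7 are paired-box transcription factors of muscle progenitors, and PAX7 marks satellite cells, the stem cells that lie against the fibre and supply the nuclei of growing muscle. MYF5, MYOD1, MYOG and MYF6 are basic helix-loop-helix (bHLH) factors: MYF5 and MYOD1 commit cells to the muscle lineage, and MYOG and MYF6 act in differentiation and in the fibre, together with MEF2C, a MADS-box partner that is also used by neurons, endothelium and leukocytes. MSTN encodes myostatin, a secreted member of the TGF-beta family that limits muscle growth, and NCAM1 encodes a cell adhesion molecule of neurons, myoblasts and satellite cells. MYF6 and MYF5 lie next to each other on 1 chromosome, with 0 annotated genes between them in the RefSeq table of GRCg7b. The samples were whole tissues, so fewer cells of a type and less RNA per cell cannot be told apart.

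The values are signals made with MAS5, on a linear scale and in arbitrary units, and the trimmed mean was 499.9 on each array. Of the 13 probe sets, 12 passed a filter on low signal and were tested, and they cover 8 genes; the single PAX3 probe set did not pass. Changes are differences of log2(signal + 28.36), day 7 minus day 0, and 28.36 was the lower quartile (25th percentile) of the signals; this scale understates the change of dim probe sets. A log2 change is given ± its standard error in limma's fit to all 24 arrays, with n = 3 pools per group, and a mean signal ± the SD of its 3 pools. A probe set was called where its adjusted p, by Benjamini-Hochberg over the 25758 probe sets tested, was under 0.05. Signals of different probe sets were not set against each other, because probes differ in how brightly they hybridise.

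No pair of the 24 arrays held identical values. Arrays of 1 group correlated at 0.916 to 0.981, and those of unlike tissues at 0.804 or less. Control transcripts for hybridisation were bright on duodenum day 0 replicate 2 (mean signal 28925) and duodenum day 7 replicate 1 (47416), against 6441 to 16752 on the other 22 arrays. The label of breast muscle held against its markers: the summed signal of 9 genes of the contractile fibre was 381131 to 386834 at day 0 and 523604 to 630549 at day 7, and at most 5403 in any pool of another tissue.

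The 4 bHLH factors and myostatin were bright in breast muscle and dim in the other tissues. Across the 18 pools of liver, brain and duodenum, the highest signal was 97.8 for MYF5, 86.0 for MYOD1, 96.5 for MYOG, 77.8 for MYF6 and 52.5 for MSTN. In the 6 muscle pools the lowest signals of the same probe sets were 538 for MYF5, 9940 for MYOD1, 299 for MYOG, 335 for MYF6 and 259 for MSTN. The muscle pools therefore did not overlap the others for any of these 5 genes. The smallest difference from another tissue at the same age was 7.51 on the log2 scale for MYOD1 and 2.35 for MYOG. These 5 probe sets passed the filter on low signal only through muscle, so the differences are given as a description with no test.

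PAX7 had a second place of expression. Its signals in muscle were 1395, 1177 and 1318 at day 0 and 510, 605 and 522 at day 7. In brain they were 300, 244 and 502 at day 0 and 265, 242 and 226 at day 7, whereas the 12 pools of liver and duodenum lay between 1.39 and 46.5. Muscle was above brain at both ages, by 1.87 ± 0.30 on the log2 scale at day 0 (limma, adjusted p = 1.18e-05) and by 1.07 ± 0.30 at day 7 (adjusted p = 0.00433). Brain was above liver and duodenum at both ages, by 2.64 to 3.55 (largest adjusted p = 4.97e-08), and the order muscle, brain, then liver and duodenum held at each age. PAX7 is also known in vertebrates as a factor of the dorsal midbrain.

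PAX3 was dim everywhere. The means of its 8 groups ran from 23.6 ± 25.7 in duodenum at day 7 to 73.0 ± 26.6 in liver at day 0, and in muscle they were 64.1 ± 26.0 at day 0 and 45.7 ± 16.4 at day 7. No group reached 104.6, the median of all signals, so the probe set gave no order of tissues and no test was made. A dim probe set does not show that a transcript is absent, and detection calls were not used here.

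**Figure D1:**
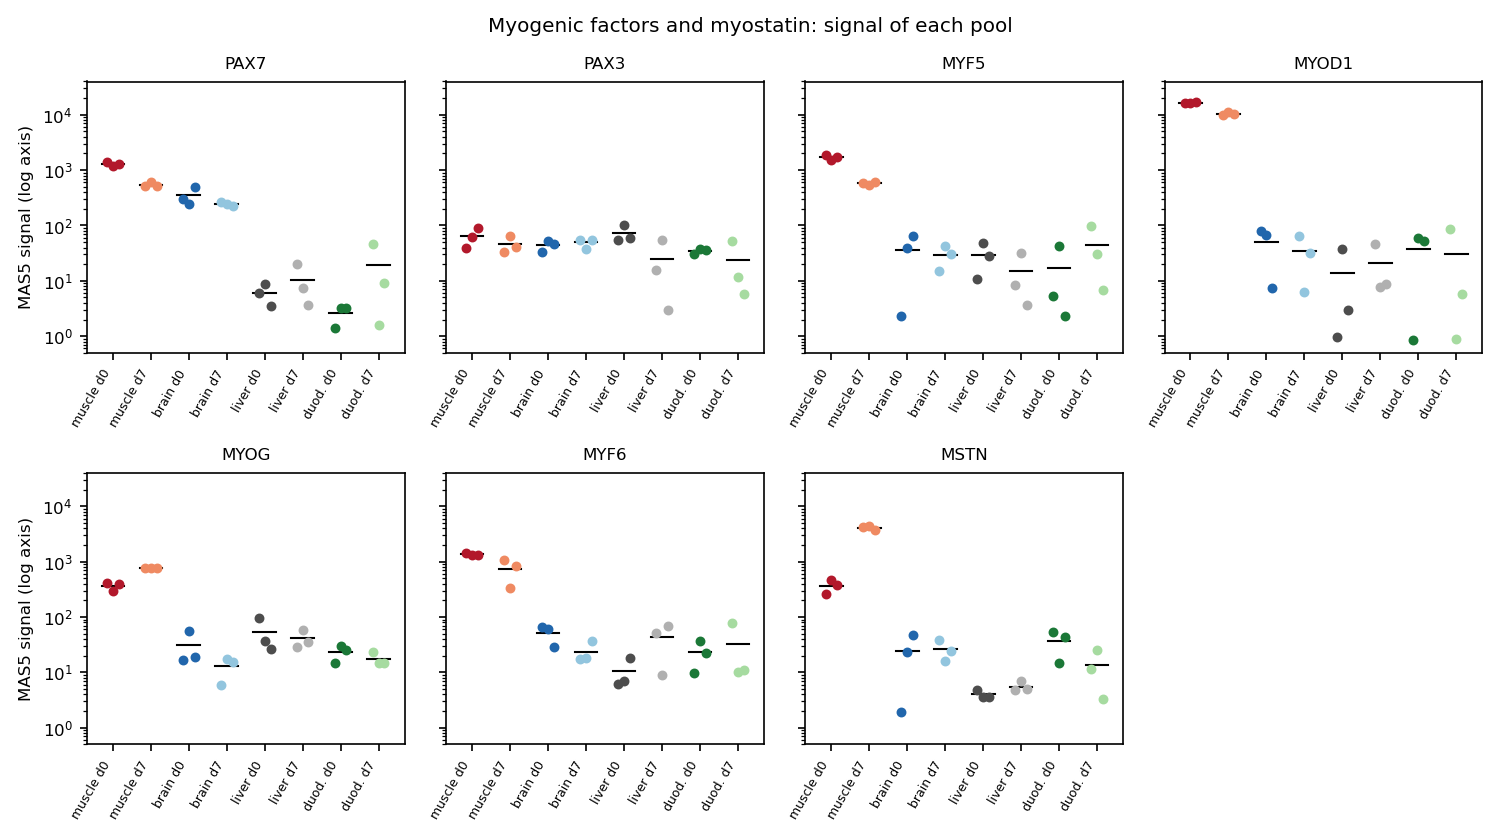
Signal of each pool (points, log axis) and group mean (bars) for the 7 genes with 1 probe set, over breast muscle, whole brain, liver and duodenum (duod.) at day 0 (d0) and day 7 (d7), 3 pools per group. MYF5, MYOD1, MYOG, MYF6 and MSTN stand apart in muscle, PAX7 is intermediate in brain, and PAX3 is at most 104 in each pool.

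NCAM1 divided between muscle and brain according to the probe set. The array carries 3 probe sets for NCAM1 and 3 for MEF2C, numbered here 1 to 3 and shown with their identifiers in the plot of these probe sets. For NCAM1 probe set 2 the muscle signals were 3598, 3255 and 3500 at day 0, and the brain mean was 2432 ± 268. Those tissues did not differ beyond the threshold at day 0, at 0.50 ± 0.26 on the log2 scale (95% interval -0.03 to 1.04, limma, adjusted p = 0.111). At day 7 muscle was lower than brain, with a log2 difference of -1.49 ± 0.26 (adjusted p = 2.72e-05). For NCAM1 probe set 3 the muscle minus brain difference had the opposite sign at day 0, where it was not called either (-0.36 ± 0.28, adjusted p = 0.289), and at day 7 it was called lower in muscle as well, at -1.70 ± 0.28 (adjusted p = 1.08e-05).

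NCAM1 probe set 1 was bright in brain alone. Its brain signals were 2211, 2433 and 2024 at day 0 and 1591, 1573 and 1070 at day 7. In muscle it read 64.1, 12.9 and 24.97 at day 0 and 60.7, 129 and 66.4 at day 7, close to the 14.5 to 106 of liver and duodenum. Muscle minus brain was -5.25 on the log2 scale at day 0 and -3.69 at day 7. This probe set passed the filter on low signal only through brain, so these differences are given as a description with no test. NCAM1 is known to be spliced into isoforms that differ between muscle and neurons; which transcript each probe set detects was not examined. The summed signal of 8 neuron markers was 108380 to 126502 in brain pools and 312 to 434 in muscle pools.

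MEF2C was brightest in muscle by all 3 of its probe sets, with intermediate signals in brain. For probe set 3 the means were 1168 ± 350 and 1075 ± 127 in muscle, 353 ± 128 and 466 ± 166 in brain, 150 ± 55.7 and 347 ± 138 in liver, and 52.0 ± 2.07 and 37.9 ± 33.9 in duodenum, at day 0 and day 7. The other 2 probe sets kept muscle first at both ages, and the largest adjusted p of muscle against another tissue over the 3 was 0.0150. At day 0 brain exceeded liver by all 3 probe sets, by 1.09 to 1.78 on the log2 scale (largest adjusted p = 0.0101). At day 7 the brain minus liver difference was 0.30 to 0.47 and was not called by any of them (smallest adjusted p = 0.256).

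**Figure D2:**
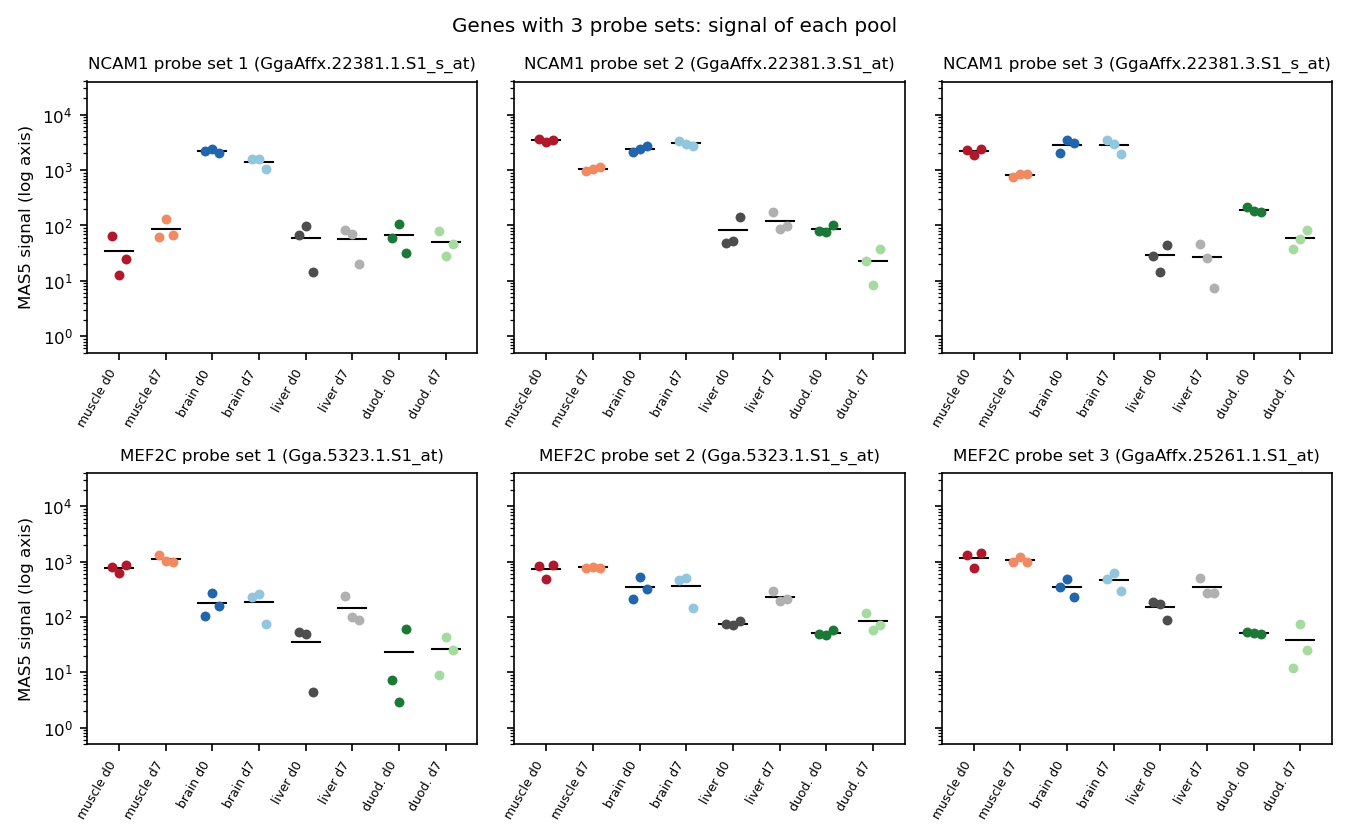
Signal of each pool (points, log axis) and group mean (bars) for the 3 probe sets each of NCAM1 (upper row) and MEF2C (lower row), in the same order of groups. The first NCAM1 probe set is bright in brain alone, the other 2 in brain and muscle, and the MEF2C probe sets are brightest in muscle and intermediate in brain.

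Counted over the tested probe sets, 9 of 12 were called higher in muscle than in each other tissue at day 0, against 9.56% of all probe sets tested, and 9 of 12 at day 7, against 11.1%. At both ages the other 3 were those of NCAM1. Several of the 9 passed the filter only through muscle, so that count describes the group and supports nothing further. Brain was called higher than both liver and duodenum by 7 of 12 probe sets at day 0, against 21.7% of all, and by 4 of 12 at day 7, against 22.4%. The 4 were PAX7 and the 3 probe sets of NCAM1, and the 3 of MEF2C made up the difference. The NCAM1 probe set that was bright in brain alone passed the filter only through brain. The brain counts, which hold several probe sets of the same genes, therefore also only describe the group.

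Within breast muscle the group changed in both directions over the first week. Of 12 tested probe sets 6 were called, against 27.4% of all probe sets. Of these, MSTN and MYOG rose (2 of 12, against 11.9% of all), and MYF5, PAX7 and 2 probe sets of NCAM1 fell (4 of 12, against 15.5% of all). The pools of the ages did not overlap for 9 of 12 probe sets, against 46.6% of all.

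The progenitor factor PAX7 fell by 1.21 ± 0.30 on the log2 scale (95% interval -1.84 to -0.58, limma, adjusted p = 0.00399). Its mean signal went from 1296 ± 111 to 546 ± 51.9, a ratio of 2.38, and each of the 3 pools at day 7 was below each pool at day 0. The fall in muscle differed from the age change in liver (adjusted p = 0.0266) and duodenum (adjusted p = 0.00465), where PAX7 was dim and changes are understated. It did not differ beyond the threshold from that in brain, where the change was -0.41 ± 0.30 and was not called (difference -0.80 ± 0.43, adjusted p = 0.245).

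MYF5, one of the determination factors, read 1900, 1524 and 1745 at day 0 and 597, 538 and 612 at day 7. The groups lay far apart, and the log2 change was -1.52 ± 0.44 (95% interval -2.43 to -0.61, limma, adjusted p = 0.0116). MYOD1, the other, read 16239, 16175 and 17162 at day 0 and 9940, 11209 and 10435 at day 7. Its day 7 pools were all below its day 0 pools, at a ratio of 1.57, but the log2 change of -0.65 ± 0.51 was not called in the fit to all arrays (95% interval -1.70 to 0.39, adjusted p = 0.377). The SD of the log2 values within groups was 0.0701 in muscle pools and 0.814 in the pools of the other tissues, where the probe set was dim, and the fit to all arrays shares 1 spread per probe set. With the 6 muscle arrays fitted alone, the same change had a standard error of 0.0895 and MYOD1 was called lower (limma, adjusted p = 0.000168).

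MYOG, which drives myoblasts into differentiation, moved the opposite way. Its signals were 407, 299 and 387 at day 0 and 778, 772 and 759 at day 7, with no overlap. The log2 change was 1.04 ± 0.32 (95% interval 0.38 to 1.69, limma, adjusted p = 0.0168). Without muscle day 0 replicate 2, the lowest of the pools, the change was 0.91 and no longer passed (adjusted p = 0.0719). MYF6, the factor most associated with mature fibres, read 1432, 1334 and 1335 at day 0 and 1066, 335 and 830 at day 7. The day 7 pools were all lower but spread over more than the range of day 0, and the change of -0.997 ± 0.43 was not called (95% interval -1.87 to -0.12, adjusted p = 0.0857). It was called in the fit to muscle alone (standard error 0.309, limma, adjusted p = 0.0266). Unlike for MYOD1, the SD of its log2 values within groups was no smaller in muscle pools (0.592) than in the others (0.529). MYF6 was also called without muscle day 7 replicate 1 (-1.32, adjusted p = 0.0428) and without duodenum day 7 replicate 1 (adjusted p = 0.0485). It stayed uncalled in 31 of 37 alternatives, over which its muscle change ran from -1.32 to -0.52.

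MEF2C showed no called change in muscle. Its 3 probe sets gave 0.54 ± 0.45, 0.15 ± 0.35 and -0.07 ± 0.35 on the log2 scale, and they differed in sign. Probe set 1 read 788, 627 and 862 at day 0 and 1330, 1026 and 998 at day 7 without overlap, and was called higher in the fit to muscle alone (limma, adjusted p = 0.0216). The widest 95% interval of the 3 ran from -0.39 to 1.48, so a change of that size was not excluded.

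Myostatin had the largest change of the 12 probe sets. MSTN signals were 259, 472 and 372 at day 0 and 4243, 4331 and 3797 at day 7. The mean rose from 368 ± 106 to 4124 ± 286, a ratio of 11.2, and the lowest pool at day 7 lay above the highest at day 0 by a wide margin. The log2 change was 3.42 ± 0.33 (95% interval 2.74 to 4.11, limma, adjusted p = 2.36e-08). It exceeded the age change in brain by 3.29 ± 0.47 (adjusted p = 2.22e-05), in liver by 3.36 ± 0.47 (adjusted p = 1.09e-05) and in duodenum by 4.05 ± 0.47 (adjusted p = 6.25e-07). In those tissues MSTN stayed at or under 52.5 in each pool, and changes of dim probe sets are understated. MSTN passed the filter on low signal only through muscle, so these differences from brain, liver and duodenum rest mainly on the change in muscle.

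NCAM1 fell in muscle by the 2 probe sets that were bright there. Probe set 2 went from a mean of 3451 ± 177 to 985, 1056 and 1128. The log2 change was -1.68 ± 0.26 (limma, adjusted p = 2.35e-05). Probe set 3 read 2278, 1880 and 2454 at day 0 and 758, 839 and 857 at day 7, a change of -1.39 ± 0.28 (adjusted p = 0.000438). By both probe sets the pools were separate by age. Probe set 1, bright in brain alone, gave 0.90 ± 0.41 in muscle, with overlapping pools, and was not called (adjusted p = 0.108).

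With 1 in place of 28.36 added before log2, the muscle calls of MYF5, PAX7 and MYOG were lost (limma, adjusted p = 0.314, 0.230 and 0.180). Over 37 alternatives their muscle changes ran from -1.60 to -1.40, -1.29 to -1.09 and 0.91 to 1.14. With 28.36 added, their SDs within groups were 0.130, 0.125 and 0.157 in muscle pools and 0.657, 0.374 and 0.381 in other pools. In the fit to muscle alone the adjusted p was 4.55e-06, 3.65e-05 and 0.000462. The part of these spreads in the lost calls was not tested. In the fit to muscle alone 9 of 12 probe sets were called, against 33.7% of all. The 3 added to the 6 were those of MYOD1, MYF6 and probe set 1 of MEF2C.

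Some markers of other cell types also changed in the muscle samples over the same week, and their part in these changes was not tested. Over all genes in muscle 15.2% were called higher and 18.2% lower, and several of the counts that follow lie near those shares. Of 5 tested markers of Schwann cells and glia, 3 fell (SOX10, MBP and, with 1 of its 2 probe sets, SLC1A3), while S100B and GFAP gave 0.67 and 0.77 and were not called. The summed signal of the 5 was 9672 to 10940 at day 0 and 2339 to 2457 at day 7, most of it MBP (means of 9329 and 1965); NCAM1 is also known in Schwann cells. Of 9 fibre markers 1 was called higher (MYLPF), with sums of 381131 to 386834 at day 0 and 523604 to 630549 at day 7. The log2 changes of the 9 ran from 0.41 (TNNT3) to 1.19 (MYBPC2), with a median of 0.48. Of 7 endothelial markers 3 fell, with sums of 18020 to 19694 at day 0 and 13650 to 13763 at day 7, and of 8 fibroblast markers 2 fell, with sums of 204736 to 218581 and 194063 to 216224. Of 8 macrophage and leukocyte markers 3 rose, with sums of 6798 to 7966 and 9647 to 10996. Of 8 neuron markers 1 rose and 1 fell. Of 5 smooth muscle markers 1 fell, with sums of 7838 to 8757 and 4947 to 6628. Of 6 red blood cell markers 2 rose, with sums of 41319 to 47448 and 53563 to 71077. Of 6 adipocyte markers 2 fell, with sums of 12259 to 14388 and 6489 to 7512. Of 7 hepatocyte markers 2 fell (APOA1 and AHSG), with sums of 39738 to 42651 and 7049 to 8135. Of 8 enterocyte markers 1 fell (ANPEP), and 5 of the 8 had a day 0 mean under 28.36.

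Outside muscle, the age calls among the 12 probe sets may be read against the shares over all probe sets. MYF5, MYOD1, MYOG, MYF6 and MSTN were dim there in each pool, and changes of dim probe sets are understated. A missing call for these genes therefore does not show a lack of change. In whole brain 0 of 12 were called by limma, against 0.233% of all probe sets. At an unadjusted p under 0.05 the count was also 0 of 12, against 1610 of all 25758 probe sets. The brain change of PAX7 was -0.41, with a 95% interval of -1.04 to 0.22. Those of NCAM1 probe sets 1, 2 and 3 were -0.66, 0.32 and -0.05, with intervals of -1.51 to 0.18, -0.22 to 0.85 and -0.63 to 0.52.

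In liver 2 of 12 probe sets were called, against 11.5% of all, and both were MEF2C. Probe set 2 read 74.0, 71.5 and 83.3 at day 0 and 289, 196 and 209 at day 7, a log2 rise of 1.30 ± 0.35 (limma, adjusted p = 0.0138). Probe set 1 read 52.7, 49.1 and 4.40 at day 0 and 240, 100 and 86.9 at day 7, a rise of 1.42 ± 0.45 (adjusted p = 0.0415). Probe set 3 gave 1.07 ± 0.35 and missed the threshold (adjusted p = 0.0507). All 3 probe sets had separate pools at the ages. The share of all probe sets with separate pools was not computed for liver, and in breast muscle it was 46.6%. Without liver day 7 replicate 1, the highest pool by each of them, probe sets 1 and 2 gave 1.04 (adjusted p = 0.232) and 1.14 (adjusted p = 0.0745), and without liver day 0 replicate 2 they gave 1.62 (0.0526) and 1.26 (0.0505). Probe set 1 also lost its call without liver day 0 replicate 3 (0.241), liver day 7 replicate 2 (0.0568), muscle day 0 replicate 1 (0.0507), muscle day 0 replicate 3 (0.0504) or muscle day 7 replicate 3 (0.0502). It lost it as well with liver fitted alone, with 1 or the median of all signals added, and without a filter. Median centring, no variance trend and a block of number within age also removed it. Of 37 alternatives, probe set 1 lost its call in 14, probe set 2 lost its call in 2, and probe set 3 gained one in 14.

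MEF2C is known in macrophages and lymphocytes as well as in muscle. In liver 8 of 8 macrophage and leukocyte markers rose, against 6.36% of genes called higher there. Their summed signal was 20097 to 21685 at day 0 and 62060 to 71381 at day 7. In duodenum 8 of 8 of these markers also rose. Of all probe sets, 23.1% were called there in either direction, and 39.0% of those called were higher. Their sums there were 9177 to 10689 at day 0 and 35601 to 51328 at day 7. No MEF2C probe set was called in duodenum, where the log2 changes were 0.19, 0.44 and -0.40. MEF2C was dim in duodenum, and changes of dim probe sets are understated. The part of these markers in the liver MEF2C result was not tested.

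In duodenum 2 of 12 probe sets were called, against 23.1% of all, and both were NCAM1. Probe set 3 read 219, 181 and 177 at day 0 and 38.3, 57.6 and 81.5 at day 7, a log2 change of -1.36 ± 0.28 (limma, adjusted p = 0.000747). Probe set 2 went from 85.4 ± 13.1 to 22.96 ± 14.8, a change of -1.18 ± 0.26 (adjusted p = 0.00157), which brought it under the value added before log2. Without the bright duodenum arrays and also without brain day 0 replicate 1 and day 7 replicate 3, the changes were -1.21 and -1.26 (adjusted p = 0.00290 and 0.00543). With duodenum fitted alone probe set 2 lost its call (adjusted p = 0.0618). Of 8 neuron markers in duodenum, which holds enteric neurons, 5 fell, against 19.2% of genes called lower there. The summed signal of the neuron markers was 3980 to 4900 at day 0 and 1306 to 1732 at day 7. Other genes fell there too, with 5 of 8 fibroblast markers, 1 of 5 smooth muscle markers and 21 of 25 cell cycle genes called lower and 0 higher in each. The part of any of these in the NCAM1 result was not tested.

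**Figure D3:**
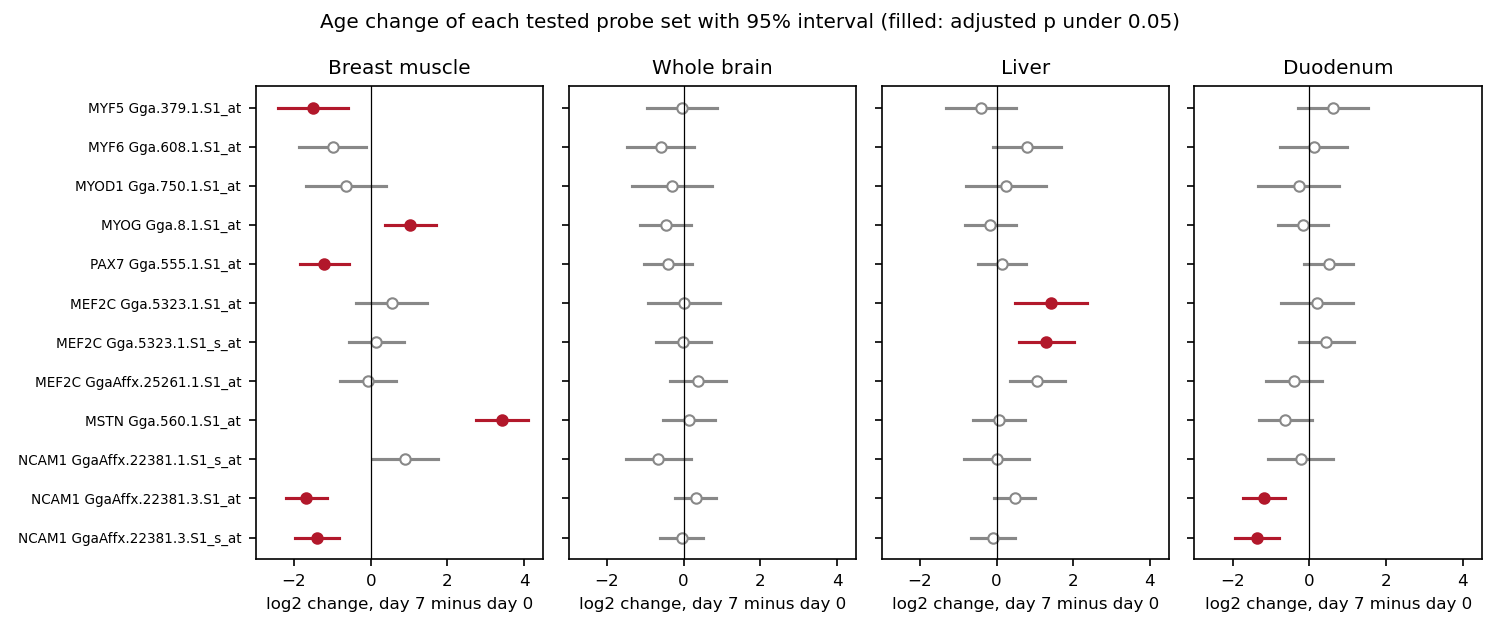
Age change (log2, day 7 minus day 0) of each of the 12 tested probe sets in 4 tissues, with its 95% interval from the fit to all 24 arrays; filled points passed an adjusted p of 0.05. In muscle 2 rise and 4 fall, in liver 2 MEF2C probe sets rise, in duodenum 2 NCAM1 probe sets fall, and in brain 0 are called.

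An F test over the 4 tissues asked whether the age change itself differed between them. It was called for 5 of 12 probe sets, against 30.4% of all. These were MSTN (limma, adjusted p = 1.36e-06), NCAM1 probe sets 2 and 3 (6.94e-05 and 0.00644), PAX7 (0.0157) and MYOG (0.0467). MYF5 missed the threshold at 0.0574 and MYF6 at 0.0893. MSTN and MYOG were dim outside muscle and passed the filter on low signal only through it. Their F tests, and their differences from brain given below, therefore rest mainly on the change in muscle. Between muscle and brain alone the change differed for 4 of 12, against 14.6% of all. For probe sets 2 and 3 of NCAM1 the muscle change minus the brain change was -1.999 ± 0.37 and -1.34 ± 0.39 (adjusted p = 0.000434 and 0.0210). The fall in muscle was not distinguished from that in duodenum (-0.50 ± 0.37 and -0.03 ± 0.39, adjusted p = 0.365 and 0.965). Both probe sets were dimmer in duodenum, where changes are understated. Ratios of mean signal, day 0 over day 7, were 3.72 and 3.25 in duodenum and 3.27 and 2.69 in muscle. MYOG differed between muscle and brain by 1.503 ± 0.45 (adjusted p = 0.0246), and MSTN was the fourth.

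The genes that work with or against these factors were taken as 10 lists with 209 names, of which 167 were tested, each by its brightest probe set. In muscle 30 of them (18.0%) were called higher at day 7, against 15.2% of all genes, and 43 (25.7%) lower, against 18.2%. Of the 30, 17 came from the list of 25 cell cycle genes, as did 2 of the 43. No other list gave more than 4 higher, so the pooled share of rises mostly reflects the cell cycle list. The median log2 change over all genes was -0.02, against which the medians below may be read. The counts below may be read against 15.2% higher and 18.2% lower, and several lie near those shares.

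Among 16 tested bHLH partners, which include E-proteins, MEF2 relatives and cofactors of the EYA family, 1 rose and 0 fell, with a median of 0.00. The one was EYA4, a transcriptional cofactor, at 1.16 ± 0.32. Among 18 inhibitors of the bHLH factors, 1 rose and 4 fell, with a median of -0.35. HDAC4, a deacetylase that represses MEF2, fell by 0.98 (log2 change -0.98 ± 0.19, limma, adjusted p = 0.000382). ID4 and ID2, which sequester E-proteins, changed by -0.70 and -0.54, the repressor BHLHE40 by -0.67, and SNAI1 rose by 0.80, though with 1 of its 2 probe sets.

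Among genes of the satellite cell niche 4 of 27 were higher, near the share over all genes, and 8 were lower, with a median of -0.38. CAV1, a caveolar coat protein, went from 573 ± 83.4 to 192 ± 26.3 (log2 change -1.45 ± 0.34, limma, adjusted p = 0.00246). SPRY2 and SPRY1, inhibitors of receptor tyrosine kinase signalling, changed by -1.22 and -1.16, and MET, the receptor of hepatocyte growth factor, by -1.21. ITGA7, the laminin receptor of muscle, rose from 874 ± 205 to 2210 ± 426 (1.32 ± 0.38, adjusted p = 0.0118). VCAM1 rose by 1.12, the Notch ligand DLL1 by 0.80 with 1 of its 2 probe sets, and CXCR4 by 0.71.

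Among fusion and differentiation genes 3 of 18 were higher and 3 lower, both near the shares over all genes, with a median of 0.19. CDKN1A, which withdraws myoblasts from the cell cycle, rose from 419 ± 59.9 to 1168 ± 178 (1.42 ± 0.46, limma, adjusted p = 0.0219). The cardiac actin ACTC1, used in developing skeletal muscle, rose by 0.77 and RB1 by 0.57. CSRP3, a LIM protein of the sarcomere, went from 9751 ± 1139 to 71.4 ± 33.3. Its log2 change was -6.66 ± 0.33 (adjusted p = 2.38e-13). MUSTN1 changed from 6371 ± 1159 to 907 ± 554 (-2.91 ± 0.36, adjusted p = 1.01e-06).

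Among 12 postsynaptic membrane genes, several of which the bHLH factors are known to drive, 0 rose and 6 fell, and the median was -0.96. AGRN, the organiser of receptor clusters, went from 1612 ± 190 to 503 ± 106 (-1.64 ± 0.17, limma, adjusted p = 1.10e-07). COLQ, the tail of acetylcholinesterase, changed by -1.95, but with 1 of its 2 probe sets, and LRP4, the agrin receptor, by -1.20 with 1 of its 3. DOK7 and MUSK, of the same signalling complex, changed by -1.06 and -1.05, and CHRNG, the fetal receptor subunit, by -0.96. Acetylcholinesterase itself, ACHE, gave 0.36 and was not called. CHRNA1, CHRND and RAPSN gave -0.34, -0.86 and -0.96 and were not called either.

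The myostatin pathway gave few rises beside that of MSTN. Among 9 relatives and activators 1 rose (TGFB3, at 0.69, with 1 of its 2 probe sets), 1 fell (INHBA, the activin A subunit, at -1.17) and the median was 0.22. Among 8 antagonists 0 rose and 3 fell, with a median of -0.53. FST, follistatin, which binds myostatin, went from 2092 ± 174 to 682 ± 86.0 (-1.58 ± 0.35, limma, adjusted p = 0.00127). FMOD, a small proteoglycan, went from 5087 ± 446 to 759 ± 207 (-2.73 ± 0.23, adjusted p = 3.23e-09). DCN, another, changed by -0.56 and is also one of the fibroblast markers.

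Among 14 receptors, Smads and other regulators of the pathway, which include corepressors, 0 rose and 7 fell, with a median of -0.76. ACVR2B, the type II receptor of myostatin, read 1092 ± 49.9 at day 0 and 445 ± 51.6 at day 7 (-1.25 ± 0.20, limma, adjusted p = 3.32e-05). Its relative ACVR2A changed by -0.62. SMAD3, which carries the signal to the nucleus, changed by -1.46 with 1 of its 2 probe sets. SMAD2 and the receptor TGFBR1 gave -0.08 and -0.34 and were not called. LTBP1, which holds latent TGF-beta in the matrix, changed by -1.45 with all 4 of its probe sets, and the corepressor TGIF1 by -1.28. TGFBR3 and SKIL were the others, at -1.11 and, with 1 of its 2 probe sets, -0.90.

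Among 20 growth and atrophy signals 3 rose and 9 fell, with a median of -0.66. IGF1, the growth factor opposed to myostatin in muscle mass, went from 14.01 ± 5.37 to 332 ± 99.5 (3.05 ± 0.32, limma, adjusted p = 8.15e-08). Its day 0 mean lay under the value added before log2, so the size of that change depends on it. IGFBP3 rose by 0.67 and RPS6KB1 by 0.46. IGFBP2 went from 2721 ± 362 to 445 ± 61.3 (-2.54 ± 0.31, adjusted p = 1.02e-06). FBXO32, the ubiquitin ligase atrogin-1, changed by -1.77, the insulin receptor INSR by -1.47 with 2 of its 3 probe sets, and MTOR by -1.18 with 2 of 3. TRIM63 gave -0.25 and was not called.

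Cell cycle genes rose in muscle, where 17 of 25 were called higher and 2 lower, with a median of 0.94. AURKB went from 84.5 ± 17.0 to 454 ± 127 (2.07 ± 0.33, limma, adjusted p = 3.18e-05) and CDK1 from 721 ± 92.8 to 2653 ± 122 (1.85 ± 0.20, adjusted p = 1.57e-07). The proliferation marker MKI67 rose by 1.82, the mitotic kinase PLK1 by 1.68 and CCNA2 by 1.56. CDK6 and CCND1, which act early in the cycle, were the 2 lower, at -1.14 with 1 of its 3 probe sets and -0.66 with 1 of its 2. These genes are common to all dividing cells of the tissue, and PAX7 and MYF5 fell in the same pools.

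**Figure D4:**
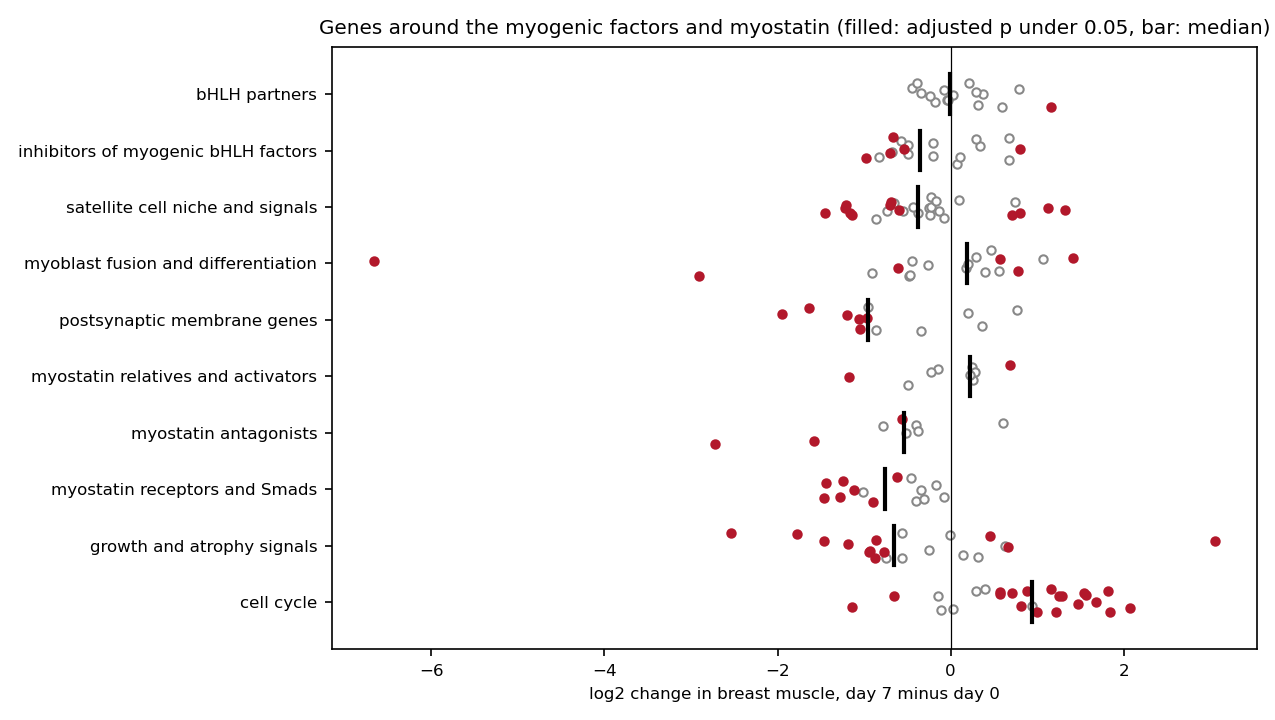
Log2 change in breast muscle (day 7 minus day 0) of each tested gene of the 10 lists, 1 probe set per gene; filled points passed an adjusted p of 0.05 and black bars are list medians. Medians run from -0.96 for postsynaptic membrane genes to 0.94 for cell cycle genes; CSRP3 is the point at -6.66.

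The genes whose pattern over the 8 group means was nearest to each of the tested genes were found among 9937 genes by Pearson's r of the mean log2 values. The values describe 8 points that share their arrays. For MYF5 they were MYH1B, CHRNG and MYH1C, of which MYH1B and MYH1C encode fast myosin heavy chains (r = 0.994, 0.993 and 0.992). For MYOD1 they were KLHL40, KLHL41 and SYNPO2L, for MYF6 MYOZ2, APOBEC2 and SCN4B, and for MYOG CAND2, VGLL2 and MYBPC3 (r of 0.993 to 0.999). For MSTN they were TUBA8A, GPD1 and PRKCQ (r = 0.990, 0.990 and 0.990), whose muscle log2 changes were 3.41, 4.04 and 1.64. For PAX7 they were LRIG1, FGF18 and PNISR (r of 0.989 to 0.993), and for NCAM1 probe set 2 MAP7D3, ZFHX4 and SYT14 (r of 0.978 to 0.988). MEF2C, taken by its probe set 3, had the loosest neighbours, SH2B1, ADAM19 and PAIP2B (r of 0.973 to 0.975). The other probe sets of NCAM1 and MEF2C were not ranked.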

How the data were processed

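The deposited table holds 1 intensity per probe set and array on a linear scale, made by the authors with MAS5 per the submitters' processing notes; the sources used here give neither its version nor its settings. The mean after trimming 2% at each end was 499.9 on each array. RNA was extracted with Trizol and labelled from 2 µg, per the labels' protocols. Gene names came from the annotation of the array (27178 with 1 symbol, 177 with several, 11180 with none), and symbols were updated for 26863 through RefSeq's GRCg7b table. No genome build is named, so no coordinates are given.

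From these values log2(signal + 28.36) was fitted with limma 3.58.1 in R 4.3.3, as 8 group means over 24 arrays, with a variance trend over signal level (degrees of freedom: 16 residual and 7.94 prior). Left out were 96 control probe sets and those with no group mean, taken on the log2 scale, reaching 104.6, the median of all signals; 25758 remained. For lists, the brightest of a gene's probe sets was used (11444 genes), and up to 5 called members per list were named by size of change. Others named complete a count of calls, or were not called and stand in a pair or complex with a named gene. They were chosen after their values were seen. The members and lists were chosen with earlier results of these data known. On simulated data for the age change in muscle, over 25758 probe sets, 42% of log2 changes of 1 and 86% of changes of 2 were recovered, with 8 false calls. Only 100 probe sets of each size were changed, with 1 spread per probe set over all groups. In the data 27.4% were called in muscle and spreads differed between tissues, so these rates need not carry over. Between the ages of a tissue, deviations of same-numbered pools had a median r of 0.01 (12 pairs, 2 over 0.1, range -0.44 to 0.38). Those of unlike-numbered pools had a median of -0.0035 (24 pairs, 8 over 0.1, range -0.43 to 0.52). That check does not bear on tissues sampled together at the same age. Between tissues at the same age, same-numbered pools had a median r of 0.03 (36 pairs, 2 over 0.1). Unlike-numbered pools had a median of -0.02 (72 pairs, 2 over 0.1). The numbers were taken as names, and whether tissues came from the same birds was not tested. Alternatives changed the value added, filter, scaling, weights, variance model, arrays fitted, block and left-out arrays.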

Additional observations from a re-analysis of the deposited data

Results flagged for a closer look

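The age change differed between the 4 tissues, by the F test in limma over 24 arrays, for 5 probe sets of the group. The adjusted p was 1.36e-06 for MSTN, 6.94e-05 for NCAM1 probe set 2 and 0.00644 for NCAM1 probe set 3. It was 0.0157 for PAX7 and 0.0467 for MYOG. MSTN and MYOG were dim outside muscle, so their results rest mainly on the change in muscle.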

How the results depend on the processing

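Of 1776 recomputed age changes of single probe sets in the 4 tissues, 1731 kept their side of the threshold, 21 lost a call and 24 gained one. Of the called changes 0 reversed, and 53 changes that were not called had the other sign. MSTN and both muscle NCAM1 calls held in muscle under each of the 37 alternatives. With 1 in place of 28.36 added before log2, muscle held 3 calls in place of 6 (MYF5, PAX7 and MYOG lost theirs). Liver held 1 in place of 2, and the F test 2 in place of 5. Of all probe sets, 25.1% were then called in muscle and 10.3% in liver. Liver also held 1 without a filter (6.87% of all probe sets called), with median centring (7.35%) and with no variance trend (10.5%). It held 3 with array weights (19.1%), the stricter filter (18.9%), the replicate block (11.4%) and without 4 arrays left out together (19.5%). The share in the main fit was 11.5%, so the whole table moved as well. The F test gave 8 with array weights and without those 4 arrays (the bright duodenum arrays and brain day 0 replicate 1 and day 7 replicate 3). The share of all probe sets called by the F test under the alternatives was not computed. Duodenum held 1 when fitted alone (11.7% of all). In muscle 9 were called when fitted alone (33.7% of all). Leaving out 1 array at a time gave 5 to 7 calls in muscle, 0 to 3 in liver, 2 in duodenum, 0 in brain, 4 to 6 by the F test, 8 to 9 probe sets higher in muscle at each age, and 61 to 84 list genes (73 with all arrays). With the replicate number as a block, muscle held 6 (27.3% of all), duodenum 2 (22.8%), the F test 4 and the lists 72. A block of number within age, chosen after seeing the data like the filter on linear means, gave 7 (28.0%), 2 (23.6%), 5 and 73. The samples share only a number. Median centring moved the median muscle change of all probe sets from -0.02 to -0.10. The causes were not tested. Dim probe sets (PAX3, and most of the group outside muscle) limit what can be said of low levels, and detection calls were not used.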
